A study of Mus musculus with 30 samples.

Results

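RNA from floating 4T1 cells was compared between 72 and 48 h of exposure to small extracellular vesicles (sEVs) made by neutrophils that had met 27-hydroxycholesterol (27HC), an oxysterol. 4T1 is a mouse mammary carcinoma line that spreads spontaneously in BALB/c mice. The comparison used 9 of the 29 libraries with values in the study, 4 taken at 72 h and 5 at 48 h, all from the non-adherent fraction of the culture. Every gene that passed a filter on low counts was tested, 13008 of 39253 in the table. A further library at 72 h was left out by the authors as an outlier for its group, per the labels, and is not used here.

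The vesicles came from primary Ly6G+ neutrophils of wild-type female BALB/c mice, isolated with a commercial kit after 48 h with 10 µM 27HC. The tumour cells were grown flat in medium with vesicle-depleted serum, and under these vesicles a share of them let go of the dish. The 6 groups were non-adherent cells at 72 and 48 h and adherent cells at 72 and 48 h, all under 27HC-sEVs, and adherent cells at 72 and 48 h under vesicles of neutrophils given the vehicle DMSO (DMSO-sEVs). All groups therefore carried neutrophil vesicles, and floating cells were taken under 27HC-sEVs alone. The labels do not say when the cells collected at 72 h had let go, or whether the replicates were separate cultures or vesicle preparations. The p-values below therefore speak of variation among these libraries, possibly technical.

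Epithelial cells hold on to matrix through integrins, and loss of that contact changes growth factor signalling, nutrient uptake and survival. The integrated stress response slows translation in cells short of amino acids or under oxidative or membrane stress and brings up the transcription factor ATF4 and its targets. Oxysterols restrain the sterol-sensing SREBP factors, which drive cholesterol synthesis, and activate the liver X receptors (LXR), which drive sterol export.

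At 72 h, against 48 h, the floating cells had higher RNA for part of the genes of the amino acid stress response and of glycolysis, for ferritin, heme oxygenase and the proteases Mmp13, Mmp12 and Mmp3. They had lower RNA for most genes of mitosis, and for part of the interferon-stimulated, integrin, matrix, EGR and SREBP control genes. By edgeR's quasi-likelihood test, 742 genes rose (5.7% of those tested) and 899 fell (6.91%), 1641 in all (12.6%) at a Benjamini-Hochberg adjusted p under 0.05. Most changes were small: the median log2 fold change was 0.33 among genes that rose and -0.35 among genes that fell, and 47 rose and 37 fell by at least 2-fold. Every 72 h library lay above every 48 h library for 1401 genes (10.8%) and below for 1361 (10.5%), and 1338 of the called genes (81.5%) were separated in this way. The genes that rose made up 73171 CPM (counts scaled to a common library total; SD 810, n = 4) at 72 h and 59272 CPM (SD 1954, n = 5) at 48 h, and those that fell made up 83090 CPM (SD 1576) at 72 h and 105760 CPM (SD 5455) at 48 h.

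**Figure D1:**
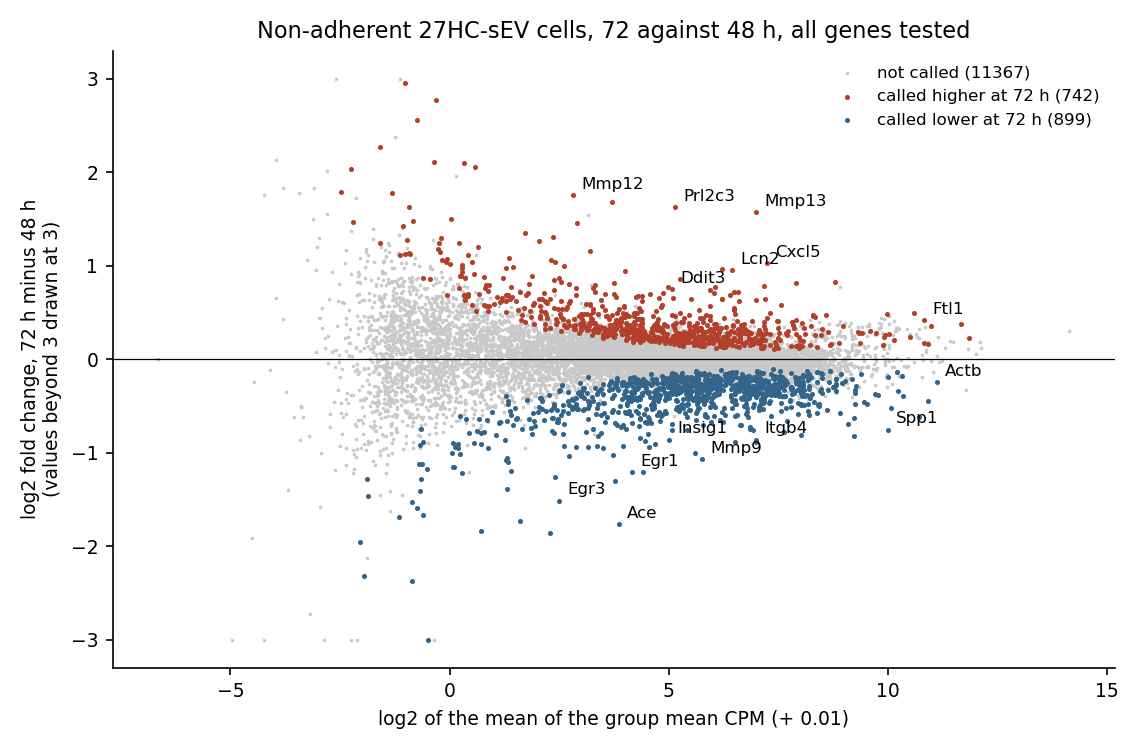
Change against level for all 13008 genes tested. The horizontal axis is the log2 mean CPM of both groups, the vertical axis the log2 fold change, 72 h minus 48 h. Red points are the 742 genes called higher at 72 h and blue points the 899 called lower; most lie within 1 log2 unit of 0.

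Library totals averaged 20.9 M counts (SD 2.68, n = 4) at 72 h and 23 M (SD 1.61, n = 5) at 48 h, and ran from 18.8 to 31.4 M over the study. The totals differed by -2.08 M (exact permutation test, two-sided p = 0.206, smallest possible 0.0159). On the first principal component of the 9 libraries, with 29.2% of the variance, the 72 h libraries lay between 14.2 and 19.9 and the 48 h libraries between -21.2 and -3.10. The library nearest to 72 h was 48 h replicate 4, which also stood alone on the second component (-23.7, 14.0% of the variance). Its counts differed from those of the other 48 h libraries by a chi-square per gene of 10.3 to 20.1, against 3.90 to 9.41 among the others. Without it 846 genes rose and 989 fell, and 92.3% of the 1641 calls were kept, so counts without it are given below. For pathway lists with no such count, the number called in each direction moved by at most 1 member without it. Without 72 h replicate 1 the genes that rose numbered 492, and without 72 h replicate 3 they numbered 480. A fit of the 9 non-adherent libraries alone, which leaves out the more variable DMSO-sEV libraries, called 1619 higher and 1870 lower. The change also ran with transcript length, with a Spearman rho of -0.29 across 12397 genes, which are not independent replicates. The 3102 shortest transcripts had a median log2 fold change of 0.10 and the 3098 longest -0.05. An offset for length and GC content gave 1117 genes higher and 1121 lower and kept 89.2% of the calls, and counts with it are given below where they move by over 1.5 times.

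Among called genes with separate groups and a mean log2 CPM of at least 3, the proliferin genes had the largest increases. Genes below that level are left out of this order, some of which changed by more. Prl2c3 (Entrez 18812), a secreted prolactin relative, had 57.5, 55.0, 52.9 and 49.3 CPM at 72 h, against 19.97, 12.8, 15.6, 21.2 and 17.5 CPM at 48 h. The groups lay far apart, and Prl2c3 rose by 1.62 on the log2 scale (SE 0.14, adjusted p = 1.97e-08 by edgeR). Its close copy Prl2c2 rose by 1.68 (SE 0.18), and since the family members can share reads their values are uncertain between them. Mmp13, a collagenase, had 151, 202, 133 and 272 CPM at 72 h, against 68.4, 63.5, 76.2, 45.4 and 65.1 CPM at 48 h. Each 72 h library was above the highest 48 h library, replicate 4 at 72 h most of all, and the log2 fold change was 1.57 (SE 0.18, adjusted p = 5.71e-07). Zan, which encodes a sperm membrane protein, rose 2.24-fold, the neutrophil-attracting chemokine Cxcl5 2.04-fold, Lcn2, a lipocalin that binds bacterial siderophores, 1.94-fold and the heme-degrading enzyme Hmox1 1.82-fold. Mmp3 (stromelysin), Nos2 (inducible nitric oxide synthase) and Ankrd33b completed the 10 largest increases at that level, at 1.77, 1.76 and 1.73-fold, though limma-trend on the deposited values did not call Nos2 (adjusted p = 0.0765).

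Ace (Entrez 11421), the angiotensin-converting peptidase, fell furthest among genes of the same level. It had 6.02, 5.90, 7.33 and 7.40 CPM at 72 h, against 22.7, 27.7, 29.1, 11.1 and 21.9 CPM at 48 h. No libraries overlapped, 48 h replicate 4 was the lowest of its group, and the level at 72 h was 3.38-fold lower (log2 fold change -1.76, SE 0.20, adjusted p = 8.56e-07). The secreted C1qtnf1 was 2.46-fold lower and Prss22, a serine protease, 2.30-fold lower. The gelatinase gene Mmp9 had 31.9, 34.9, 32.3 and 41.0 CPM at 72 h, against 72.3, 76.7, 80.9, 54.1 and 82.8 CPM at 48 h, 2.10-fold lower (log2 fold change -1.07, SE 0.15, adjusted p = 1.05e-05). It thus moved opposite to Mmp13, Mmp3 and the macrophage elastase gene Mmp12, a less abundant gene than those ordered above, which was 3.37-fold higher at 10.9 CPM (SD 0.685, n = 4) against 3.24 CPM (SD 0.775, n = 5). Prom2 (a membrane protrusion protein), the membrane-tethered chemokine Cx3cl1, the semaphorin and VEGF co-receptor Nrp1, the organic anion pump Abcc3 and the lipase Lipg fell by 1.02, 1.01, 0.95, 0.94 and 0.93 on the log2 scale.

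**Figure D2:**
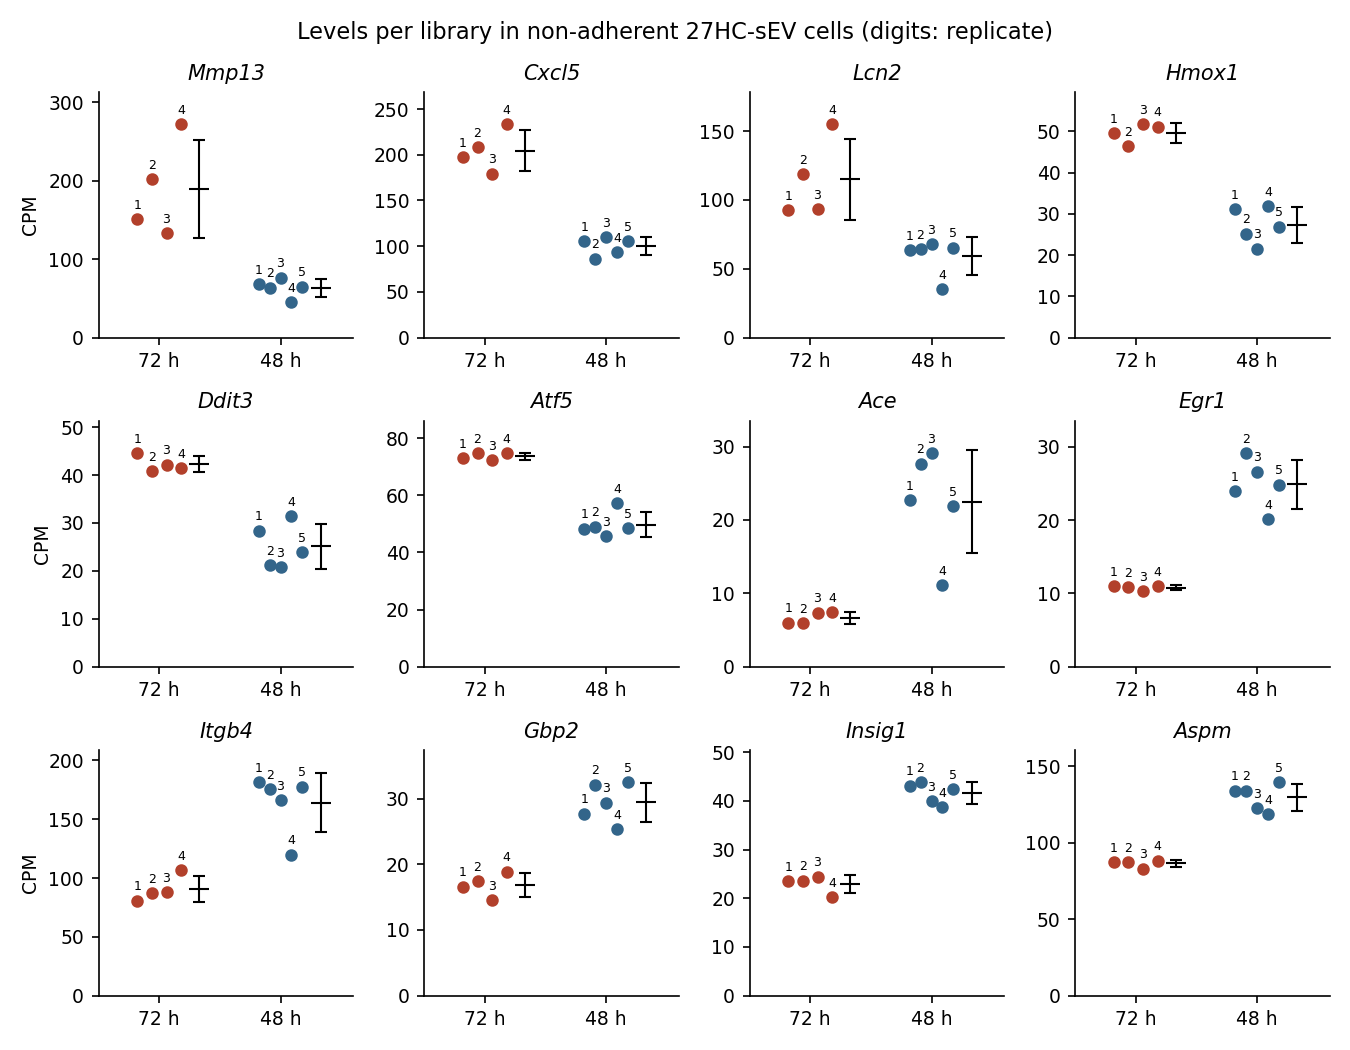
CPM of 12 named genes in each library (points, with the replicate number), 72 h on the left and 48 h on the right of each panel, with the mean and SD beside them. In every panel the 72 h libraries lie wholly above or wholly below the 48 h libraries, and for Ace, Itgb4 and Lcn2 replicate 4 stands low among the 48 h libraries.

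In absolute amount, gains and losses are ordered here among called genes with separate groups only. Fibronectin (Fn1), which was not called, fell from a mean of 3959 CPM at 48 h to 3155 CPM at 72 h. The largest gains were those of Tpt1, the translationally controlled tumour protein, the constitutive chaperone Hspa8, and both ferritin chains. Tpt1 had 3706 CPM (SD 128, n = 4) against 2843 CPM (SD 166, n = 5). The ferritin light chain Ftl1 had 2107, 2036, 2171 and 2003 CPM at 72 h, against 1556, 1564, 1461, 1733 and 1467 CPM at 48 h. All 72 h libraries were higher, by 1.34-fold (adjusted p = 8.62e-06). The heavy chain Fth1 was 1.28-fold higher. The largest losses were D17H6S56E-5, named by its locus, at 1337 CPM (SD 73.6) against 2048 CPM (SD 192), the giant scaffold protein gene Ahnak at 1634 CPM (SD 84.5) against 2221 CPM (SD 292), the secreted integrin ligand Spp1 (osteopontin) at 763 CPM (SD 32.6) against 1286 CPM (SD 221), and Actb, cytoplasmic actin, 1.19-fold lower. The call of Tpt1 (adjusted p = 0.0472) was lost in 10 of 20 alternatives to the processing, with adjusted p from 1.41e-05 to 0.111, and those of the other 7 held in every one.

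Of 33 tested ATF4 regulators and targets, genes of the integrated stress response, 17 rose (51.5%), 1 fell and 15 were not called, with a median log2 fold change of 0.26, against 0.02 over all genes tested. Without 48 h replicate 4 the numbers that rose and fell were 18 and 3, 2 fell without 72 h replicate 4, and without 48 h replicate 3 or without 72 h replicate 1 they were 11 and 1. Ddit3 (CHOP), a transcription factor of this response linked to cell death, had 44.6, 40.7, 42.2 and 41.4 CPM at 72 h, against 28.4, 21.2, 20.8, 31.4 and 23.9 CPM at 48 h. The groups did not overlap, with 48 h replicates 1 and 4 the nearest, and the log2 fold change was 0.75 (SE 0.11, adjusted p = 3.15e-05). Atf3, induced by ATF4, was 1.64-fold higher, at 81.7 CPM (SD 2.61, n = 4) against 49.9 CPM (SD 6.35, n = 5). Atf5, a further factor whose translation responds to the same stress, had 73.0, 74.8, 72.3 and 74.7 CPM at 72 h, against 48.2, 49.0, 45.6, 57.1 and 48.4 CPM at 48 h, and rose by 0.57 (SE 0.07, adjusted p = 4.87e-06). The 72 h values were close together, and 48 h replicate 4 was the highest of its group.

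The following members were chosen after their values were seen. Atf4 itself rose by 0.27 (SE 0.06), the asparagine synthetase Asns by 0.40 (SE 0.06), the pseudokinase Trib3 by 0.38 (SE 0.08) and the cystine transporter Slc7a11 by 0.29 (SE 0.09). The proline enzyme gene Pycr1, the serine pathway genes Phgdh, Psat1 and Psph and the eIF2 phosphatase subunit Ppp1r15a also rose, by 0.26 to 0.54. The member that fell was Cth, the last step from methionine to cysteine (-0.30, SE 0.08). Of 20 cytosolic aminoacyl-tRNA synthetases, which charge tRNAs and include ATF4 targets, 5 rose and 0 fell (median 0.09, 7 and 0 without 48 h replicate 4 and 3 and 0 without 48 h replicate 2, 3 or 5 or 72 h replicate 1 or 4). Sars, for serine, had 380.2, 370.2, 377 and 369 CPM at 72 h, against 279, 258, 245, 304 and 279 CPM at 48 h, 1.37-fold higher with no overlap (adjusted p = 7.35e-07). Yars, for tyrosine, was 1.18-fold higher.

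Genes of the endoplasmic reticulum passed the test at shares (3.4% up, 6.9% down) near those of all genes tested (5.7% and 6.91%). Of 29 endoplasmic reticulum chaperones and unfolded protein response genes 1 rose, Crebrf (0.18), and 2 fell, Edem1 (-0.30, SE 0.09), which sends glycoproteins to degradation, and Dnajc3 (-0.34), with a median of -0.02. With the length and GC offset 2 rose and 0 fell, and without 72 h replicate 1 or 3 no member passed. None rose without 48 h replicate 3 or 72 h replicate 2, none fell without 48 h replicate 1 or 5, and 1 fell without 48 h replicate 2 or 3 or 72 h replicate 2 or 4. The call of Crebrf was lost in 6 of 20 alternatives (adjusted p up to 0.0829), also without 48 h replicate 4, and that of Edem1 in 5 (up to 0.0719). Among 20 cytosolic heat shock chaperones 6 rose and 0 fell (median 0.06). Hspb1 rose 1.57-fold from a low level, 4.98 CPM (SD 0.531) at 72 h and 3.17 CPM (SD 0.446) at 48 h, and Hspb8 1.27-fold. Of 27 NRF2 and antioxidant genes 6 rose and 2 fell (median 0.12, 9 and 2 with the offset). Hmox1 had 49.5, 46.4, 51.8 and 51.2 CPM at 72 h, against 31.1, 25.2, 21.6, 31.9 and 26.9 CPM at 48 h, with no overlap (log2 fold change 0.86, SE 0.09, adjusted p = 1.46e-07), while Gsr, which recycles glutathione, fell by 0.32 (SE 0.05). Of 22 genes for iron handling and ferroptosis 8 rose and 1 fell (median 0.16, 5 up without 48 h replicate 2 or 72 h replicate 3). The risers were Ftl1, Fth1, Hmox1, Lcn2, Slc7a11, the glutathione-degrading Chac1, the prostaglandin synthase Ptgs2 and the iron exporter Slc40a1 (0.33, SE 0.09), and the member that fell was the lipid ligase Acsl4 (-0.26).

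**Figure D3:**
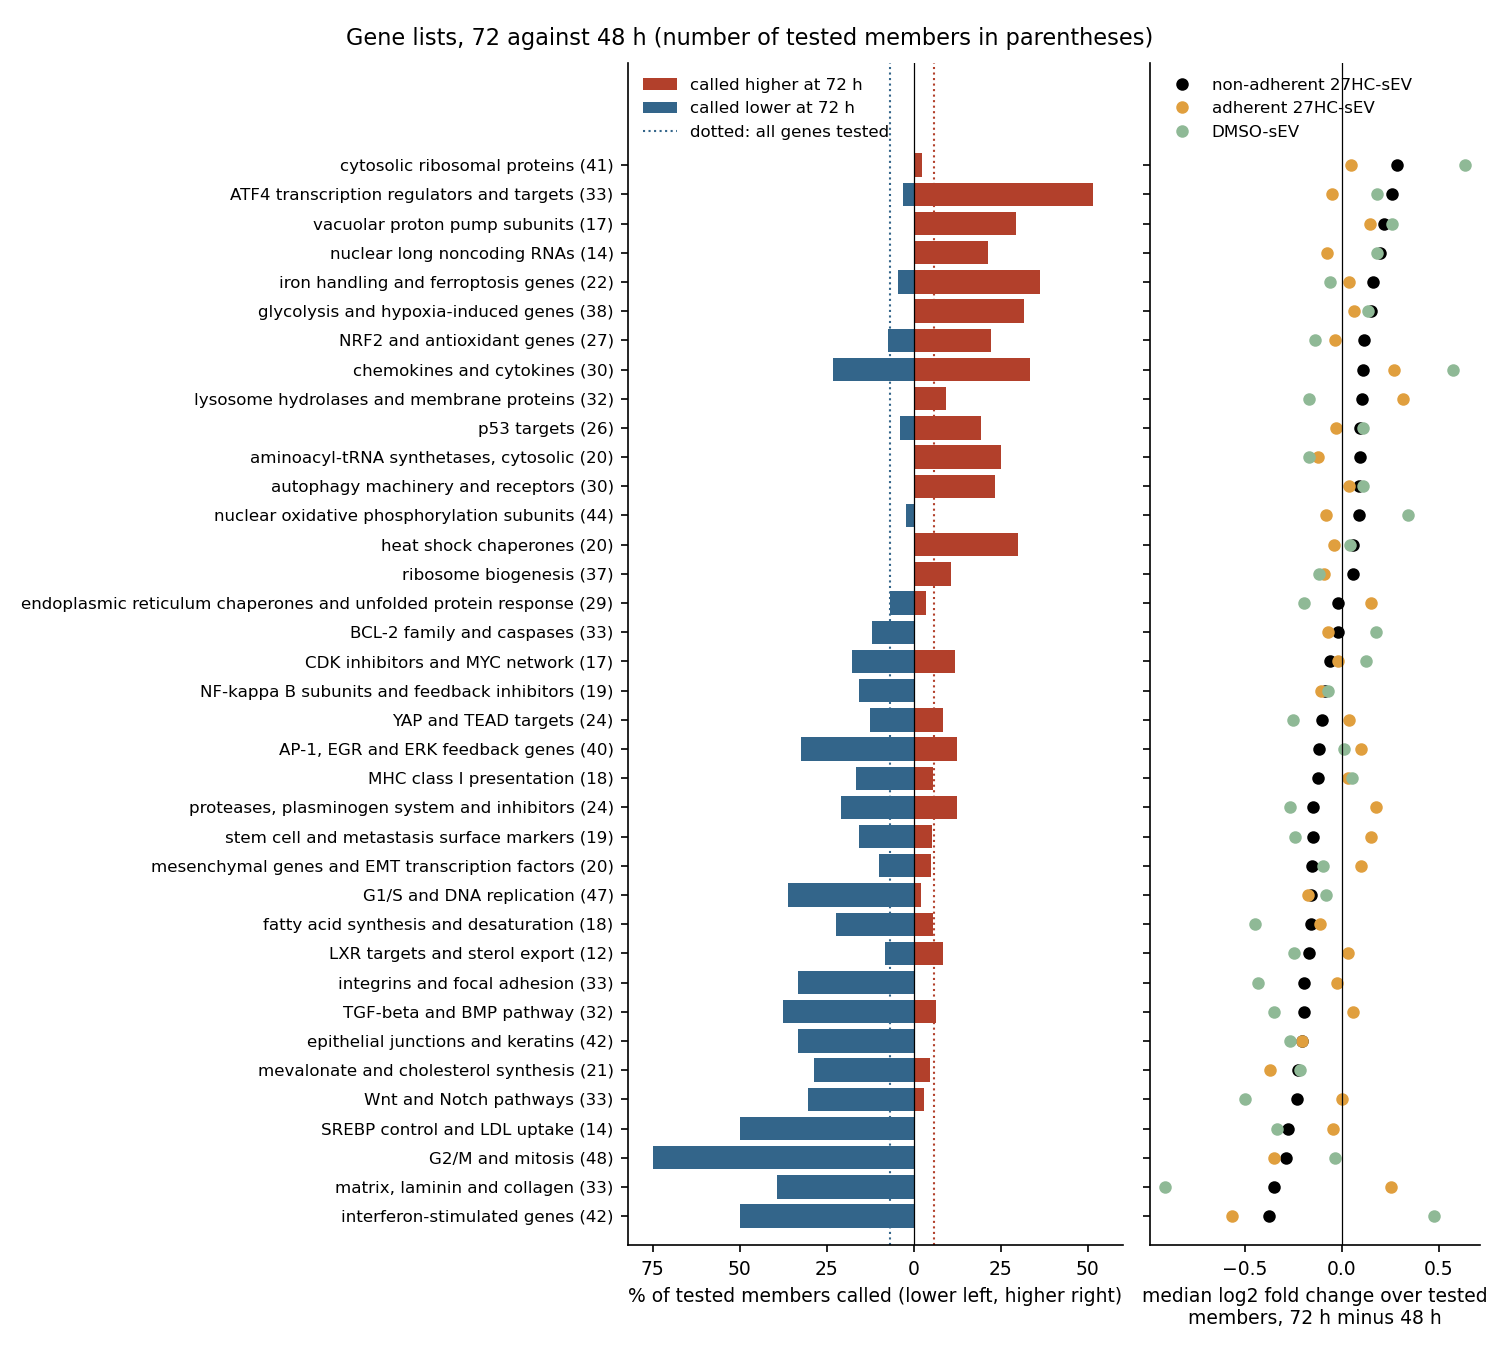
Left, percent of each list's tested members called higher (red, right) or lower (blue, left) at 72 h, with dotted lines at 5.7% and 6.91% for all genes tested. Right, the list's median log2 fold change, 72 h minus 48 h, in non-adherent 27HC-sEV (black), adherent 27HC-sEV (orange) and adherent DMSO-sEV cells (green). The G2/M list has the longest bar, 36 of 48 lower, and interferon-stimulated genes have negative medians under 27HC-sEVs and a positive one under DMSO-sEVs.

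Of 42 tested interferon-stimulated genes 21 fell, 0 rose and 21 were not called (median -0.37, 20 and 0 without 48 h replicate 4, and 13 and 0 without 72 h replicate 3). Gbp2 (Entrez 14469), a guanylate-binding GTPase of cell-autonomous defence, had 16.6, 17.4, 14.6 and 18.9 CPM at 72 h, against 27.7, 32.1, 29.4, 25.4 and 32.5 CPM at 48 h. The groups were clearly apart, and the log2 fold change was -0.80 (SE 0.09, adjusted p = 1.26e-06). Its relative Gbp3 was 1.91-fold lower, at 5.04 CPM (SD 0.475, n = 4) against 9.65 CPM (SD 1.48, n = 5). Among members chosen after their values were seen, Ifih1, a sensor of double-stranded RNA, fell by 0.56 (SE 0.07) and the cap-binding Ifit1 by 0.79 (SE 0.14). Ifit1 was low, at 3.57, 4.12, 3.59 and 3.83 CPM at 72 h, against 5.85, 5.71, 6.38, 5.97 and 8.92 CPM at 48 h, where replicate 5 was the highest. The ubiquitin-like modifier Isg15 (-0.31, SE 0.18, adjusted p = 0.301) and the master regulator Irf7 (-0.37, SE 0.17, adjusted p = 0.173) did not pass. In adherent 27HC-sEV cells 28 of the 42 fell over the same interval and 0 rose (median -0.57), where 6.54% of all genes tested fell and 6.58% rose. In DMSO-sEV cells 29 rose and 1 fell (median 0.47), where 27.8% of all genes rose and 23.8% fell. The test of the difference in time change called 31 members lower in non-adherent than in DMSO-sEV cells and 0 higher, against 11% of all genes in each direction.

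Interferon-stimulated promoters carry the interferon-stimulated response element, whose core was searched as GAAANNGAA on both strands in the 250 bases before each gene's start (RefSeq, GRCm38.p6, first listed start of each gene, matched by symbol for 78.4% of genes tested). Of the 42 members 33 had a promoter in the table, under 80%, so a comparison of shares is void and the shares describe these promoters alone. The core was present in 8 of 16 called members and in 8 of 17 members not called (47.1%), against 7.16% of all 27025 promoters. The 4 called members with the smallest adjusted p and a match are shown because they moved together, with each match in capitals (TTCNNTTTC where it lies on the other strand), 5′ to 3′ along the gene. They lie at chr3:142620413-142620662 (plus strand), chr3:142559794-142560043 (plus), chr2:62646256-62646505 (minus) and chr19:34640639-34640888 (plus).
Gbp2: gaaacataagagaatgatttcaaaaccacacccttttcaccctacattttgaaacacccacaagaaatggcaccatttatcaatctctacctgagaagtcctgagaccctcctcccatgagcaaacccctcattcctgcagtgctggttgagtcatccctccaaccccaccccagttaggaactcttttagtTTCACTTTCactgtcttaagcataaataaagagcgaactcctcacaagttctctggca
Gbp3: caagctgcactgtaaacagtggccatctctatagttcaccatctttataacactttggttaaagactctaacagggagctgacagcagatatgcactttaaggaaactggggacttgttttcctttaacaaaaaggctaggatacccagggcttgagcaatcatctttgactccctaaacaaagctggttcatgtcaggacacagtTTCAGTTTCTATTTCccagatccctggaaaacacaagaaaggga
Ifih1: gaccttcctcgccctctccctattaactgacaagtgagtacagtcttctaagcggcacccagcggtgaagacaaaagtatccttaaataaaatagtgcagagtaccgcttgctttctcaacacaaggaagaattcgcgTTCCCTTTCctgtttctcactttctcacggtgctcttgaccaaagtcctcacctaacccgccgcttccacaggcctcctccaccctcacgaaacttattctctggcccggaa
Ifit1: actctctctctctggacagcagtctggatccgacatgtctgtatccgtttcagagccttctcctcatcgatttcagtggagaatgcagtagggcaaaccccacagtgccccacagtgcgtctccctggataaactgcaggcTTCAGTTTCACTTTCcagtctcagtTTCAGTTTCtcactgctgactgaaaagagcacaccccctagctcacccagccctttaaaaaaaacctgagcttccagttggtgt
Gbp3 held 2 overlapping matches and Ifit1 3, of which 2 overlap, while Gbp2 and Ifih1 held 1 each. A match describes the letters and is no evidence of binding.

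Most genes of mitosis fell. Of 48 G2/M and mitosis genes 36 fell and 0 rose, all 48 had a negative log2 fold change, and the median was -0.29 (34 and 0 without 48 h replicate 4). Aspm, a spindle pole protein, had 87.1, 87.4, 82.9 and 88.2 CPM at 72 h, against 134, 134, 122, 118 and 139.6 CPM at 48 h. All 72 h libraries were well below the lowest at 48 h, and the log2 fold change was -0.59 (SE 0.06, adjusted p = 6.4e-08). The spindle motor Kif11 was 1.31-fold lower, at 175 CPM (SD 7.24, n = 4) against 230.2 CPM (SD 7.61, n = 5). Mki67 (-0.63, SE 0.10), the proliferation antigen, and the mitotic cyclin Ccnb1 (-0.29, SE 0.05), chosen after their values were seen, fell as well, and Cdk1 (-0.10, SE 0.10, adjusted p = 0.526) did not pass. In adherent 27HC-sEV cells 42 of the 48 fell and 0 rose (median -0.35), and in DMSO-sEV cells 19 fell and 12 rose (median -0.03), the risers being near the 27.8% of all genes that rose there. CCAAT, read by NF-Y, was present in 83.3% of the 30 called members with a promoter and in 54.5% of 11 not called. It was in 34.5% of all promoters and in 37.3% of those of genes tested. In other lists its share among members not called ran from 12.0% (BCL-2 family and caspases) to 90.0% (mevalonate genes). TTTGAA, the cell cycle homology region, was in 33.3% of the called members and 9.09% (1 of 11) of those not called. It was in 16.3% of all promoters and 10.7% of those of genes tested. In other lists the share of TTTGAA among members not called ran from 0% (heat shock chaperones, among others) to 36.4% (mesenchymal and EMT genes, 4 of 11).

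Of 47 G1/S and DNA replication genes 17 fell and 1 rose (median -0.16, 16 and 2 without 48 h replicate 4). Rrm2, the ribonucleotide reductase subunit, had 98.0, 101, 99.7 and 92.2 CPM at 72 h, against 124, 132, 135, 132 and 129 CPM at 48 h, 1.33-fold lower without overlap (adjusted p = 1.3e-07), and Uhrf1, which maintains DNA methylation, was 1.36-fold lower. The cyclins of early G1 parted: Ccnd1 fell by 0.34 (SE 0.07) from the larger amount, 1072 CPM (SD 21.5) at 72 h against 1355 CPM (SD 69.2) at 48 h, and Ccnd2, the 1 riser of the list, rose by 0.49 (SE 0.11). These were chosen after their values were seen. Of 17 CDK inhibitor and MYC network genes 2 rose, Myc (0.19) and Mxi1 (0.22), and 3 fell, Mxd3 (-0.72, SE 0.15), Rbl1 (-0.23) and Cdkn1a, and 1 rose without 48 h replicate 2 or 3 or 72 h replicate 4. Cdkn1a (p21), which restrains cyclin-dependent kinases, had 22.2, 21.9, 20.7 and 20.1 CPM at 72 h, against 27.8, 32.4, 31.8, 27.6 and 25.8 CPM at 48 h, and fell by 0.45 (SE 0.07, adjusted p = 4.45e-05). It fell while 5 other p53 targets rose of 26 tested (median 0.10, 8 and 1 without 48 h replicate 4), among them the kinase Plk3, 1.39-fold higher. Of 33 BCL-2 family and caspase genes 4 fell and 0 rose (median -0.02). Without 48 h replicate 4, 2 fell and 1 rose, and the number that fell was 1 without 72 h replicate 1 or 4 and 2 without 48 h replicate 1, 2 or 3 or 72 h replicate 3. Among those that fell, the initiator caspase Casp8 fell by 0.16 (SE 0.04), the BCL-2 relative Bok by 0.24 (SE 0.08) and Fadd, the adaptor of death receptors, by 0.23 (SE 0.08), Bok and Fadd chosen after their values were seen. The call of Casp8 was lost in 5 of 20 alternatives, among them those without 48 h replicate 2 or 72 h replicate 1, 3 or 4 (adjusted p up to 0.0674).

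**Figure D4:**
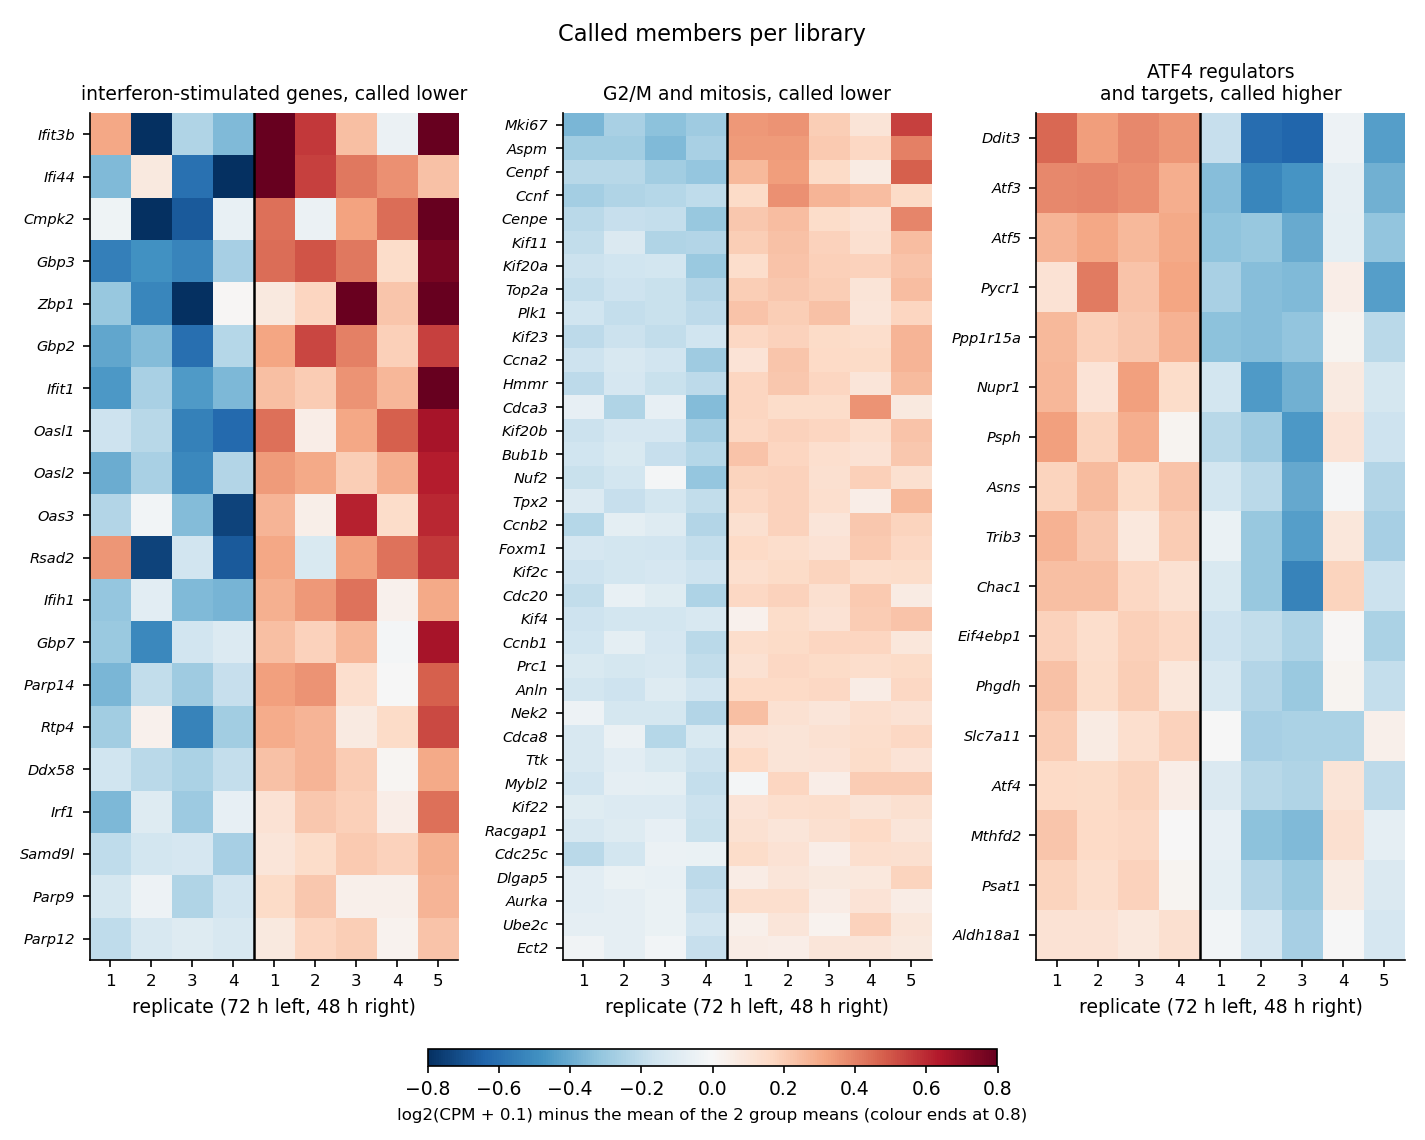
Called members of 3 lists in each library (1 interferon member is not drawn), with 72 h replicates to the left of the line and 48 h replicates to the right. Colour is log2(CPM + 0.1) minus the mean of both group means, ending at 0.8: 20 interferon-stimulated and 36 G2/M genes are mostly blue at 72 h, and 17 ATF4 genes red. In the ATF4 panel 48 h replicate 4 is pale or light red for most members.

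Of 33 integrin and focal adhesion genes, the genes of attachment, 11 fell, 0 rose and 22 were not called (median -0.19, 13 and 0 without 48 h replicate 4). Itgb4 (Entrez 192897), the hemidesmosome integrin, had 80.8, 86.9, 87.8 and 107 CPM at 72 h, against 182, 175, 166, 120.0 and 178 CPM at 48 h. Its groups did not overlap although 48 h replicate 4 came near, and the log2 fold change was -0.86 (SE 0.11, adjusted p = 6.65e-06). The collagen receptor subunit Itga2 had 168, 191, 179 and 213 CPM at 72 h, against 346, 343, 341, 238 and 378 CPM at 48 h, 1.75-fold lower (adjusted p = 9.35e-06), with the same library the lowest at 48 h. Itga1, Itga6, Itga3, Itgb6, Itga8 and Itgav fell too, and so did vinculin (Vcl) and filamin A (Flna), by 0.36 to 0.93. Such falls were not limited to floating cells. In attached DMSO-sEV cells 23 of the 33 fell and 2 rose (median -0.43), where 23.8% of all genes tested fell. The log2 fold change there was -1.32 for Itgb4 and -0.82 for Itga2. The time change was higher in floating than in DMSO-sEV cells for 9 members and lower for 1. In attached cells under the same vesicles as the floating ones, 3 fell and 5 rose (median -0.02).

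Of 33 matrix genes 13 fell, 0 rose and 20 were not called (median -0.35). The count was 17 and 0 without 48 h replicate 4, 12 and 0 without 72 h replicate 4, and 5 to 8 without any one of the other 7 libraries. Among members chosen after their values were seen, the collagen gene Col6a2 fell by 1.67 at a very low level, 0.306 CPM (SD 0.209) at 72 h against 0.996 CPM (SD 0.413) at 48 h, and Lamc1, Col4a1, Col4a2 and Col12a1 fell by 0.46 to 0.70. Thbs1 (thrombospondin) was 1.49-fold lower with overlapping groups, since 459 CPM in 72 h replicate 4 exceeded 454 CPM in 48 h replicate 4. Fibronectin (Fn1) had 2819, 3111, 3121 and 3568 CPM at 72 h, against 4469, 3944, 3758, 2856 and 4767 CPM at 48 h. All 48 h libraries but replicate 4 were above all 72 h libraries, and the change did not pass (log2 fold change -0.33, SE 0.17, adjusted p = 0.221).

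Proteases moved in both directions: of 24 tested members 3 rose, Mmp13, Mmp12 and Mmp3, and 5 fell, Mmp9, the urokinase gene Plau (-0.89, SE 0.15), the tissue activator Plat (-0.44), the sheddase Adam8 (-0.64) and the inhibitor Timp1 (-0.62, SE 0.16). Of 24 YAP and TEAD targets 2 rose (8.33%) and 3 fell (12.5%), against 5.7% and 6.91% of all genes tested (median -0.10). The number that fell was 1 without 48 h replicate 2 or 3 or 72 h replicate 1, 2 or 3. It was 5 without 72 h replicate 4. Ccn1, a matricellular target, rose by 0.64 (SE 0.12) and the stress gene Gadd45b by 0.43 (SE 0.08), while Ccn2 stood at -0.28 on the log2 scale (SE 0.10, adjusted p = 0.0742).

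Epithelial genes fell more often than they rose. Of 42 junction and keratin genes 14 fell and 0 rose (median -0.20, 18 and 0 without 48 h replicate 4, 9 and 0 without 72 h replicate 1, and 1 riser without 48 h replicate 5 or 72 h replicate 3). Krt8, a simple-epithelial keratin, had 581, 616, 584 and 578 CPM at 72 h, against 799, 843, 836, 792 and 771 CPM at 48 h, 1.37-fold lower with no overlap (adjusted p = 4.27e-05). The basal keratin Krt14 was 1.55-fold lower. Cdh1, epithelial cadherin, had 269.9, 276, 285 and 330.2 CPM at 72 h, against 442, 410.1, 408, 332 and 434 CPM at 48 h, and fell by 0.48 (SE 0.13, adjusted p = 0.0158), with 48 h replicate 4 about level with the highest 72 h library. That call was lost without 72 h replicate 1 or 2 (adjusted p up to 0.0589). The adhesion molecule Epcam was separated between groups and did not pass (-0.42, SE 0.15, adjusted p = 0.0626). Attached cells had such falls as well. Of the 42 genes 15 fell and 1 rose in adherent 27HC-sEV cells (median -0.20), and 24 fell and 4 rose in DMSO-sEV cells (median -0.27). Krt14 fell by 1.36 in adherent 27HC-sEV cells, and Cdh1 by 1.03 in DMSO-sEV cells.

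Of 20 mesenchymal genes and transcription factors of the epithelial-mesenchymal transition 1 rose and 2 fell (median -0.15). These shares, 5% and 10%, were near the 5.7% and 6.91% of all genes tested. The riser was Zeb2 (0.31, SE 0.09), which represses Cdh1, and those that fell were Foxc2 (-0.38, SE 0.10) and Id2 (-0.26). The call of Zeb2 (adjusted p = 0.0270) was lost in 6 of 20 alternatives, without a filter on low counts and without 48 h replicate 2 or 3 or 72 h replicate 1, 3 or 4 (adjusted p up to 0.0823). Without 48 h replicate 1, 2, 3 or 4 or 72 h replicate 3 or 4, 1 member fell. Vimentin (Vim) had 2223, 2279, 2290.4 and 2292 CPM at 72 h, against 2351, 2462, 2262, 2248 and 2275 CPM at 48 h, overlapping throughout (log2 fold change -0.03, SE 0.04, adjusted p = 0.708). Snai1 averaged 9.29 CPM (SD 1.51, n = 4) at 72 h and 9.24 CPM (SD 0.626, n = 5) at 48 h (adjusted p = 0.988), and Zeb1 was at or under 1.68 CPM in every library (adjusted p = 0.311). Of 19 stem cell and metastasis surface markers 1 rose (5.26%) and 3 fell (15.8%), against 5.7% and 6.91% of all genes tested. The median was -0.15. The riser was Cd24a (0.17). Those that fell were Itga6 (-0.58), the growth factor receptor Met (-0.49, SE 0.09) and the hyaluronan receptor Cd44. Without 48 h replicate 4 or 72 h replicate 4, 1 rose and 5 fell. Cd44 had 568, 629, 607 and 676 CPM at 72 h, against 929, 893, 905, 708 and 897 CPM at 48 h, 1.40-fold lower with no overlap (adjusted p = 0.00535).

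In developmental pathways more members fell than rose. Of 32 TGF-beta and BMP pathway genes 12 fell and 2 rose (median -0.19, 13 and 1 without 48 h replicate 4, 7 down without 72 h replicate 1 or 3, 0 up without 72 h replicate 4 and 1 up without 48 h replicate 1, 3 or 5 or 72 h replicate 2 or 3). The ligand Tgfb3 was 1.42-fold lower and the procollagen and BMP-pathway protease Bmp1 1.41-fold lower, at 228 CPM (SD 14.5) against 319.9 CPM (SD 24.6). Of 33 Wnt and Notch genes 10 fell and 1 rose, Lef1 (0.61, SE 0.18), with a median of -0.23 (12 and 1 without 48 h replicate 4, 6 down without 48 h replicate 1 or 5 or without 72 h replicate 1 or 3, and 0 up without 48 h replicate 2 or 3 or 72 h replicate 1). Nrarp, a feedback target of Notch, had 16.6, 19.5, 19.2 and 18.7 CPM at 72 h, against 29.6, 31.6, 31.0, 28.4 and 27.4 CPM at 48 h. It was 1.6-fold lower and well apart (adjusted p = 1.97e-08). The Notch ligand Jag1 was 1.51-fold lower.

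Immediate early genes of the ERK pathway parted. Of 40 tested AP-1, EGR and ERK feedback genes 13 fell and 5 rose (median -0.12; 2 rose without 48 h replicate 2 or 3 or without 72 h replicate 4, and 3 without 48 h replicate 5 or 72 h replicate 1). Egr1 (Entrez 13653), a serum-response transcription factor, had 11, 10.8, 10.3 and 11 CPM at 72 h, against 23.9, 29.1, 26.6, 20.1 and 24.8 CPM at 48 h. Its 72 h values were nearly identical and lay well below every 48 h value, and the log2 fold change was -1.21 (SE 0.10, adjusted p = 1.76e-08). Egr3 was 2.85-fold lower from a low level, 2.94 CPM (SD 1.05) at 72 h against 8.40 CPM (SD 1.33) at 48 h. Among members chosen after their values were seen, Egr2 (-1.08), the ERK phosphatase Dusp6 (-0.47), the ligand Hbegf (-0.52) and Junb (-0.45) fell, while Fos (0.83) and Fosl2 (0.40) rose.

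Cytokines went both ways. Of 30 tested 10 rose and 7 fell (median 0.11, 8 and 7 without 48 h replicate 4, 6 up without 72 h replicate 2, and a median of 0.02 with the offset). Il1a, an alarmin, had 117, 115, 96.4 and 121 CPM at 72 h, against 68.5, 61.0, 68.6, 72.5 and 70.6 CPM at 48 h, 1.65-fold higher with no overlap (adjusted p = 1.3e-07). Cxcl5 had 197, 208, 179 and 234 CPM at 72 h, against 105, 86.5, 110.0, 93.2 and 106 CPM at 48 h, and Cxcl1 and Cxcl3, ligands of the same receptor, rose by 0.39 and 0.81. Lif, which signals through gp130, had 116, 135, 118 and 143 CPM at 72 h, against 201, 195, 208, 162 and 208 CPM at 48 h, 1.53-fold lower (adjusted p = 5.53e-07). Csf1 (-0.57), Csf2 (-0.80), Ccl20 (-0.81) and Tslp (-0.70), chosen after their values were seen, fell. Of 19 NF-kappa B subunits and feedback inhibitors 0 rose and 3 fell (median -0.09, 1 and 4 without 48 h replicate 4), with Tnfaip3, which switches the pathway off, 1.39-fold lower and Nfkbie 1.18-fold lower. Of 18 MHC class I presentation genes 1 rose, H2-M3 (0.70), and 3 fell, among them the peptide trimmer Erap1 (-0.64, SE 0.11) and the immunoproteasome subunit Psmb10 (-0.57, SE 0.11).

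Sterol and lipid genes fell more often than they rose. Of 14 tested genes for SREBP control and LDL uptake 7 fell and 0 rose (median -0.28, 8 and 0 without 48 h replicate 4). Insig1, the sterol-sensing retention protein and itself an SREBP target, had 23.5, 23.6, 24.5 and 20.2 CPM at 72 h, against 43.2, 43.9, 40.0, 38.7 and 42.4 CPM at 48 h. The groups were far apart, and the log2 fold change was -0.86 (SE 0.10, adjusted p = 9.08e-07). Of 21 mevalonate and cholesterol synthesis genes 6 fell and 1 rose (median -0.23, 9 and 1 with the length and GC offset). Hmgcs1, which starts the mevalonate pathway, fell by 0.27 (SE 0.05), at 46.9 CPM (SD 2.15) against 56.5 CPM (SD 1.88), and the riser was the decarboxylase Mvd, at 5.59 CPM (SD 0.617) against 3.68 CPM (SD 0.46). Fatty acid genes fell in 4 of 18 and rose in 1, Me1 (0.27, SE 0.04), which makes NADPH, with the desaturase Scd2 1.77-fold lower, at 437 CPM (SD 32.2) against 772 CPM (SD 94.2). Of 12 LXR targets Plin2, a lipid droplet coat protein, rose 1.5-fold and Arl4c fell by 0.32 (SE 0.06), 3 fell without 48 h replicate 4, and 2 rose without 72 h replicate 2. The sterol exporter Abca1 was low, with 1.53, 1.05, 1.43 and 0.856 CPM at 72 h, against 2.11, 2.66, 2.29, 1.24 and 1.82 CPM at 48 h, overlapping and not called (adjusted p = 0.0959).

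Part of the genes of glycolysis, the vacuolar proton pump and autophagy rose slightly. Of 38 glycolysis and hypoxia-induced genes 12 rose and 0 fell (median 0.15, the same counts without 48 h replicate 4). Aldoa, the glycolytic aldolase, had 927, 936, 926 and 922 CPM at 72 h, against 772, 769.5, 734, 800.1 and 753 CPM at 48 h, 1.21-fold higher with no overlap (adjusted p = 0.000494), and the angiogenic ligand Vegfa was 1.19-fold higher. Of 17 vacuolar proton pump subunits 5 rose and 0 fell (median 0.22, 8 and 0 with the offset, 3 and 0 or 4 and 0 without any one library other than 48 h replicate 4). Atp6v1d and Atp6v0d1 were 1.18-fold and 1.2-fold higher, and the call of Atp6v0d1 was lost with the offset (adjusted p = 0.0944). Autophagy genes rose in 7 of 30, with the receptor Sqstm1 1.19-fold and Gabarapl1 1.27-fold higher. Lysosome hydrolases rose in 3 of 32 (median 0.11), a share of 9.38% that is near the 5.7% of all genes tested, with 0 left without 48 h replicate 3 or 5 or 72 h replicate 4 and 1 without 48 h replicate 2 or 72 h replicate 1, 2 or 3. They included Neu1 and Gla, 1.30-fold and 1.37-fold higher, whose calls were each lost in 5 of 20 alternatives (adjusted p up to 0.0929 and 0.0939).

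Of 41 cytosolic ribosomal protein genes, short and abundant transcripts, 1 rose, Rpl28 (0.28, SE 0.09). All 41 nevertheless had a positive log2 fold change (median 0.28), and 29 had 72 h libraries wholly above those of 48 h. Such separation was found in 10.8% of all genes tested. Without 48 h replicate 4, 4 rose, and without any one other library 0 did. Called members numbered 16 with the length and GC offset (median 0.16) and 35 in a fit of the non-adherent libraries alone. Ribosome biogenesis genes rose in 4 of 37 (10.8%, median 0.06, 7 without 48 h replicate 4, 2 without 72 h replicate 2 or 3 and 8 with the offset), among them Pes1 and Ppan, and 1 of 44 nuclear oxidative phosphorylation subunits fell, Sdha (-0.22, SE 0.05). Of 14 long noncoding RNAs 3 rose, the snoRNA hosts Snhg12 (0.70, SE 0.12) and Gas5 (0.41, SE 0.10) and nuclear Malat1 (0.49), and 0 fell.

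The next comparison asks whether floating cells changed with time in the way of cells that stayed attached under the same vesicles. Over the same interval 856 genes rose (6.58%) and 851 fell (6.54%) in adherent 27HC-sEV cells, from separate libraries. Of the genes that rose in floating cells 236 also rose in adherent cells (31.8% of the floating list, 27.6% of the adherent list) and 6 fell there. Of those that fell 336 also fell in adherent cells (37.4% and 39.5%) and 45 rose. The Pearson correlation of the 2 changes across all genes was 0.34, a description across genes. The test of the difference called 154 genes higher in floating cells (1.18%) and 444 lower (3.41%). Without 48 h replicate 4 these were 226 and 627. Without 72 h replicate 1 they were 92 and 258, and without 48 h replicate 3 or 72 h replicate 2 the higher ones numbered 98. Sema6d, a membrane semaphorin, fell by 0.56 in floating cells and rose by 0.91 in adherent cells (difference -1.46, SE 0.18, adjusted p = 2.8e-05).

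Ace had a time change of -1.76 in floating and 0.25 in adherent cells (difference -2.01, SE 0.30, adjusted p = 0.00016). Abcc3 had -0.94 in floating and 0.50 in adherent cells, and Itga1 -0.93 and 0.48. In the other direction Niban1, a stress-induced protein, rose by 0.77 (SE 0.07) in floating cells and had -0.01 in adherent cells (difference 0.79, SE 0.10, adjusted p = 2.8e-05), at 38.5, 38.5, 44.3 and 39.5 CPM at 72 h, against 24.6, 25.3, 20.9, 23.2 and 23.5 CPM at 48 h in floating cells. The difference was 1.05 for Prl2c3, 0.84 for Prl2c2 and 0.78 for Snhg12. Of the ATF4 list 15 of 33 had a higher time change in floating than in adherent cells and 0 a lower one. Atf5 had 0.57 in floating and -0.10 in adherent cells (difference 0.67, SE 0.10, adjusted p = 0.00021). From 48 to 72 h its mean CPM went from 49.7 to 73.7 in floating and from 78.8 to 73.5 in adherent cells. Ddit3 went from 25.1 to 42.2 and from 42.8 to 44.7, and Niban1 from 23.5 to 40.2 and from 38.2 to 37.8. In floating cells these genes thus started lower and were near the adherent level at 72 h. Prl2c3 ended higher in floating cells, at 53.7 against 45.3 CPM. Of 20 tRNA synthetases 8 differed upward. Lower time changes in floating cells were found in 12 of 33 matrix genes, 9 of 33 integrin genes, 9 of 32 TGF-beta and BMP genes, 12 of 40 AP-1 and EGR genes and 11 of 30 cytokine genes. Some of the genes that fell had started above the adherent level. From 48 to 72 h mean CPM of Itga2 went from 329 to 188 in floating and from 166 to 159 in adherent cells. Itgb4 went from 164 to 90.5 and from 86.2 to 77.4, and Ace from 22.5 to 6.66 and from 3.97 to 4.70. Met instead ended lower in floating cells, going from 159 to 113, with 138 at both times in adherent cells. Egr1 had -1.21 in floating and -0.31 in adherent cells (difference -0.90, SE 0.14, adjusted p = 0.00021). Its mean CPM went from 24.9 to 10.8 in floating and from 13.8 to 11.2 in adherent cells. The interferon list differed in 2 of 42, upward, and the G2/M list in 0 of 48. Of 21 mevalonate genes, 12 of which fell in adherent cells, 5 differed upward, with list medians of -0.23 in floating and -0.37 in adherent cells.

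**Figure D5:**
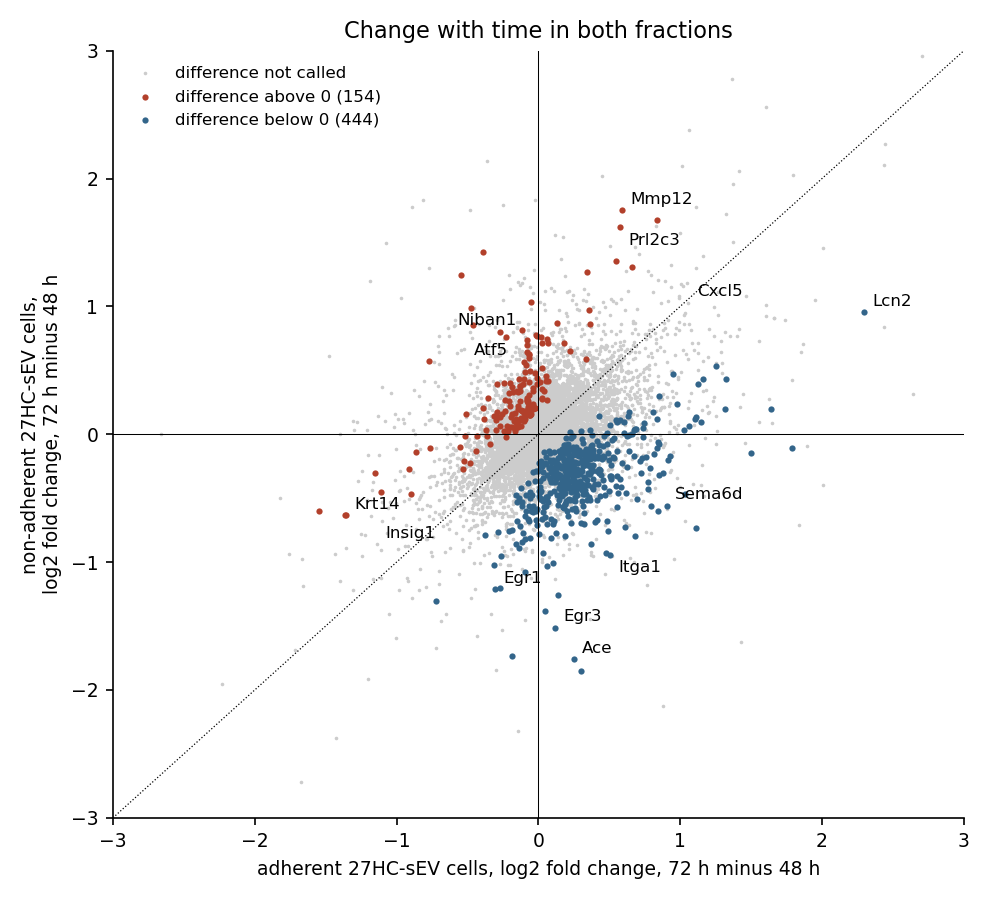
Log2 fold change, 72 h minus 48 h, in non-adherent (vertical axis) against adherent (horizontal axis) 27HC-sEV cells. Red points are the 154 genes with a higher and blue points the 444 with a lower time change in non-adherent cells, and grey points were not called. Ace, Egr3 and Egr1 lie low near the vertical axis, Atf5 and Niban1 high near it, and Cxcl5 and Insig1 near the dotted line of equal change; 11 genes beyond 3 are not drawn.

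Under DMSO-sEVs the same interval saw 3621 genes rise (27.8%) and 3097 fall (23.8%). Of the genes that rose in floating cells 367 also rose there (49.5% of the floating list, 10.1% of the DMSO list) and 60 fell, and of those that fell 534 also fell (59.4% and 17.2%) and 98 rose. The difference in time change was called positive in 1431 genes (11%) and negative in 1432 (11%). Besides interferon-stimulated genes, 27 of 48 G2/M genes and 16 of 33 BCL-2 family and caspase genes had a lower time change in floating than in DMSO-sEV cells and 0 a higher one. Of the BCL-2 family and caspase genes 15 rose and 1 fell in DMSO-sEV cells. Their median was 0.17 there and -0.02 in floating cells. Conversely 17 of 33 matrix genes and 13 of 33 Wnt and Notch genes had a higher time change in floating than in DMSO-sEV cells (medians of -0.35 in floating and -0.91 in DMSO-sEV cells for matrix, -0.23 and -0.50 for Wnt and Notch). Of the 33 ATF4 genes 15 rose and 9 fell in DMSO-sEV cells (median 0.18), and the time change was higher in floating than in DMSO-sEV cells for 11 and lower for 4. Atf3, lower in that difference, rose by 0.71 in floating and by 1.19 in DMSO-sEV cells (difference -0.48, SE 0.14, adjusted p = 0.0126). Ddit3 rose by 0.75 in floating and by 1.02 in DMSO-sEV cells, and that difference did not pass (-0.27, SE 0.18, adjusted p = 0.270).

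Markers of the line were present in every library. Of 10 genes for 4T1 cells Krt5 was at 0 throughout, 9 were tested and 7 fell (median -0.45), with summed CPM of 2963 to 3265 at 72 h and 3814 to 4308 at 48 h. Of 18 neutrophil markers 4 were tested, and Ly6g, Elane, Mpo, Csf3r and Mmp8 were at 0 in all 9 libraries. Summed CPM ran from 128 to 199 at 72 h and from 91.3 to 150.5 at 48 h, nearly all of it Lcn2 and Mmp9, of which Lcn2 rose and Mmp9 fell. The part of such cells in any result was not tested. Among markers chosen after their values were seen, the neutrophil alarmin S100a8 rose by 2.11 (SE 0.29, adjusted p = 1.12e-05) from a very low level, with 1.2, 1.48, 1.28 and 1.06 CPM at 72 h, against 0.239, 0.347, 0.220, 0.481 and 0.137 CPM at 48 h, and it also rose in adherent cells. The macrophage markers Adgre1, C1qa, C1qb and C1qc were at 0, and Cd68 and Csf1r rose among 5 tested (1 riser without 48 h replicate 2, 3 or 5 or 72 h replicate 1 or 3), with summed CPM of 19.1 to 21.9 at 72 h and 15.8 to 19.7 at 48 h. Fibroblast markers summed to 26.1 to 36.1 CPM at 72 h and 26.6 to 39.2 CPM at 48 h. Most of it was Pdgfra, with means of 25.5 CPM at 72 h and 29.1 CPM at 48 h, followed by Postn at 3.96 and 4.67 CPM. Pdgfrb, Col3a1 and Thy1 were at 0, and Dcn was higher at 72 h, at 1.0 CPM (SD 0.522) against 0.165 CPM (SD 0.0365). Lymphocyte, endothelial and erythroid and platelet markers summed to at most 1.53 CPM. In these bulk libraries fewer cells of a kind and less RNA per cell cannot be told apart.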

How the data were processed

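Polyadenylated RNA was sequenced, and the authors deposited estimated counts per gene, together with a table of log2 CPM with TMM scaling, per the file's name. The submitters' processing notes name Salmon 1.10.0 and the mouse build GRCm39 (mm39). Of the deposited counts 40.8% were not whole, and they were rounded for the tests. All 29 libraries entered 1 model with a term per group (edgeR 4.0.16 in R 4.3.3, quasi-likelihood test, TMM factors, filterByExpr with a minimum count of 10 and total of 15, 23 residual degrees of freedom), and p-values were adjusted by Benjamini-Hochberg over all 13008 genes tested at a threshold of 0.05. Changes are 72 h minus 48 h. Differences between cell groups are differences of those changes. CPM are counts scaled to a common TMM-adjusted library total. The method was tested on simulated counts.

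Named genes were the 10 largest increases and 10 largest decreases of well-expressed called genes with separate groups. Added were the 4 largest gains and 4 largest losses in mean CPM among called genes with separate groups. Also named were the 2 called members of each list with the smallest p and a set of 10 chosen genes. The last were the 4 largest differences to adherent cells in each direction. The members and lists were chosen with earlier results of these data known. Alternatives were other scalings, filters and tests (DESeq2 1.42.0, limma 3.58.1 on counts and on the deposited log2 values), length and GC offsets for the 95.3% of genes with a length, a replicate block and leaving out each library. Of the genes the naming rule gave, and of the list members, 4 are counted but not reported here. No mitochondrially encoded gene is in the table used here. Depth of 18.8 to 31.4 M counts limits statements on genes of about 1 CPM or less. Promoters came from RefSeq.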

Additional observations from a re-analysis of the deposited data

Results flagged for a closer look

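Of 206 groups of 4 or 5 libraries of the named genes reported, 21 held a library far from the others by Dixon's ratio at its 95% critical value; chance gives about 1 in 20. At 48 h, replicate 4 was such a library for 17 genes. It was low, in CPM, for Lcn2 (35.3), C1qtnf1 (14.1), Cx3cl1 (43.2), Abcc3 (20.3), D17H6S56E-5 (1714), Erap1 (45.4), Lif (162), Itgb4 (120.0), Itga2 (238), Itga6 (223), Tgfb3 (38.0), Bmp1 (276), Epcam (290.3), Cd44 (708) and Itga1 (7.65), and high for the snoRNA hosts Snhg12 (22.2) and Gas5 (178). The others were Atf3 in 72 h replicate 4 (77.9 CPM), Edem1 in 72 h replicate 4 (91.4), Krt8 in 72 h replicate 2 (616) and Foxc2 in 48 h replicate 2 (18.7).

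The change with time differed between non-adherent and adherent 27HC-sEV cells for 49 named genes by edgeR's test of the difference, given here on the log2 scale as non-adherent minus adherent. It was positive for Mmp12 (1.16), Prl2c3 (1.05), Prl2c2 (0.84), Niban1 (0.79), Snhg12 (0.78), Krt14 (0.72), Ddit3 (0.68), Atf5 (0.67), Mvd (0.67), Gadd45b (0.53), Atf3 (0.53), Hmox1 (0.50), Gas5 (0.48), Sars (0.40), Ftl1 (0.36), Sqstm1 (0.34), Yars (0.27), Hmgcs1 (0.26), Plin2 (0.25) and Me1 (0.21). These include ATF4 and ferritin genes that rose in floating cells and sterol genes.

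It was negative for Ace (-2.01), Abca1 (-1.85), Egr3 (-1.63), Sema6d (-1.46), Abcc3 (-1.45), Itga1 (-1.40), Lcn2 (-1.34), Spp1 (-1.25), Cx3cl1 (-1.11), Prss22 (-0.93), Egr1 (-0.90), Itga6 (-0.82), Itga2 (-0.75), Prom2 (-0.71), Itgb4 (-0.70), Nrp1 (-0.69), Lif (-0.64), Cd44 (-0.63), C1qtnf1 (-0.58), Foxc2 (-0.55), Ahnak (-0.55), Bmp1 (-0.55), Jag1 (-0.55), Nrarp (-0.53), Tgfb3 (-0.52), Met (-0.49), Edem1 (-0.40), Cdkn1a (-0.39) and Vim (-0.22). Lcn2 rose in both fractions, by 0.96 in floating and 2.30 in adherent cells. The value of Abca1 rests on very low levels, with adherent means of 0.391 CPM at 48 h and 0.837 CPM at 72 h. Its change in floating cells was not called.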

How the results depend on the processing

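Across 20 alternatives no gene called in one direction was called in the other, and 89 of 100 called named genes were called in every alternative that gave a value. Genes called higher at 72 h (742) and lower (899) numbered 1619 and 1870 in a fit of the groups compared alone, and 480 to 846 and 618 to 989 with 1 library left out. Length and GC offsets gave 1117 higher. The positive difference to adherent cells (154 genes) numbered 281 with DESeq2, 82 without a filter, 356 in the groups compared alone, 360 with offsets and 92 to 226 with 1 library left out; the negative (444) numbered 857 in the groups compared alone and 258 to 627 with 1 left out. The cause was not tested. Snai1, not called, had a log2 fold change of 0.0034, and of -0.011 with limma-voom, -0.0043 with limma-trend, -0.00097 at 1 CPM, -0.0029 without a filter, -0.0066 in the groups compared alone, -0.056 with offsets and -0.11 to 0.065 with 1 library left out. The difference in library totals (-2.08 M) ran from -3.36 to -1.37 M with 1 left out; without 72 h replicate 2 it was -3.36 M (exact permutation p = 0.0357).

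Replicate numbers did not pair the libraries of the non-adherent groups (correlations of deviations 0.07, -0.09, -0.003 and -0.10). Pairing in the other groups was not tested. On the second principal component of all 29 libraries, DMSO-sEV replicates 4 and 5 lay at -4.22 and -5.82 at 72 h, and replicates 1 to 3 between 20.2 and 28.9. At 48 h they lay at -33.5 and -29.9, and replicates 1 to 3 between -22.9 and -17.9. A replicate block gave 861 higher and 1104 lower, and 709 negative differences to adherent cells. The block with offsets was not run, because of the correlations among the non-adherent libraries alone.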
